A study of Mus musculus with 6 samples.

Results

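The renin-angiotensin and endothelin genes examined here are 9 genes of 2 vasoactive peptide systems: *Agt*, *Ace*, *Enpep* and *Agtr1a* of the angiotensin system, and *Edn1*, *Edn3*, *Ece1*, *Ednra* and *Ednrb* of the endothelin system. They were taken by gene symbol from a table of 17556 genes, in which all 9 were listed, and all 9 passed the filter on low counts together with 13817 genes in total. The table holds bulk RNAseq of infarcted left ventricles of mice aged 6 to 10 weeks. The coronary artery on the left anterior side had been tied permanently, and the ventricles were taken at 4 days post injury (dpi). Siblings with floxed *Yap* (both alleles) and floxed *Wwtr1* (a single allele) formed both groups, and every mouse received tamoxifen citrate in its diet from the time of surgery. The 3 Cre positive mice also carried MerCreMer, a tamoxifen inducible Cre, under the endogenous *Postn* promoter, which is active in myofibroblasts, whereas the 3 Cre negative mice had wildtype *Postn*. Cre is therefore limited to cells that express *Postn*, while the RNA is that of the whole ventricle, in which fewer cells of a type and less RNA per cell cannot be told apart.

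In the angiotensin system, angiotensinogen (*Agt*) is cut by renin and then by angiotensin converting enzyme (*Ace*) to angiotensin II, which constricts vessels and promotes fibrosis and hypertrophy in the heart through its type 1 receptor (*Agtr1a* in most mouse tissues). Aminopeptidase A (*Enpep*) shortens angiotensin II to angiotensin III. In the endothelin system, endothelin converting enzyme (*Ece1*) releases the active peptides from the precursors encoded by *Edn1*, mainly made by endothelium, and *Edn3*. The receptor *Ednra* mediates constriction and growth in smooth muscle, cardiomyocytes and fibroblasts, and *Ednrb* on endothelium clears the peptide and releases nitric oxide.

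The results below turn on *Edn1*, the only member whose Cre positive ventricles all lay above the Cre negative ones with an unadjusted p under 0.05, and on *Agt*, the member that varied most between ventricles, so the promoter of each is shown. RefSeq windows of 300 bases on GRCm38.p6, the build named in the submitters' processing notes, were found for 8 of the 9 members, in 12 windows (all but *Agtr1a*). Each window runs from 250 bases before the annotated start of transcription to 50 bases from it. The windows were searched for the motifs of TEAD proteins (the DNA binding partners of Yap and Wwtr1), AP-1, GATA factors and the hypoxia response element on both strands, and for the TATA box on the strand of the gene. Capitals mark the matches, which do not overlap in the windows printed.

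*Edn1* promoter (plus strand, chr13:42301226-42301525): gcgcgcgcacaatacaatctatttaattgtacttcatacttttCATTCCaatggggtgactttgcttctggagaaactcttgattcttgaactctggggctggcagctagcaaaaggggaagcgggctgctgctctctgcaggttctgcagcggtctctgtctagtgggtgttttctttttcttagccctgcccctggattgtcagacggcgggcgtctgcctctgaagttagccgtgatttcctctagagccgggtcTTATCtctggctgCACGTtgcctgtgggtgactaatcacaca

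*Agt* promoter (minus strand, chr8:124569657-124569956): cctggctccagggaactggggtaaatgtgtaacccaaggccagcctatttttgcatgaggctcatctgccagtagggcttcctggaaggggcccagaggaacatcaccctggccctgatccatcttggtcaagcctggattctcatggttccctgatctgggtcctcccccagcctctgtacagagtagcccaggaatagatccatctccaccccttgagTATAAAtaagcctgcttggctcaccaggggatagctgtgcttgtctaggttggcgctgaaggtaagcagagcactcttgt

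The *Edn1* window held the TEAD motif (GGAATG) on its minus strand, starting 207 bases before the start of transcription, and this was 1 of the 12 windows, against 14.7% of all 32851 promoter windows. It also held the GATA motif (GATAA) on its minus strand, printed as TTATC, 8 bases after the annotated start. The core of the hypoxia response element (ACGTG), also on the minus strand and printed as CACGT, lay 21 bases after that start. GATA was found in 2 of the 12 windows (*Edn1* and *Enpep*), against 25.4% of all, and the hypoxia response core in 2 of the 12 (*Edn1* and an alternative promoter of *Ece1*), against 19.6% of all. The *Agt* window held a TATA box (TATAAA) 30 bases before the start, which 8.32% of all windows have. The AP-1 motif (TGANTCA) was in 0 of the 12 windows and in 7.81% of all. These matches describe the reference sequence and carry no measurement of binding.

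The libraries held between 13177888 and 14827579 estimated counts. Cre negative replicate 1 stood apart: it had the highest normalised level of the 6 ventricles for 4259 of 13817 genes (30.8%), against 11.5% to 20.1% in the other ventricles. Its summed level of 8 cardiomyocyte markers in CPM (counts scaled to a common library size) was 59710, against 41090 and 42110 in the other Cre negative ventricles and 35810 to 40150 in the Cre positive ones. Of these 8 markers 4 (*Tnnt2*, *Tnni3*, *Myl2* and *Pln*) were lower in every Cre positive ventricle, as were 6.85% of all genes tested. Its sum of 7 fibroblast markers was the lowest (13150, against 17980 to 23270), and collagens made up most of that sum. The other 4 markers (*Pdgfra*, *Tcf21*, *Dcn* and *Lum*) summed to 1208 there and to 953.2 to 1193 in the other ventricles. These 4 differed in direction: *Tcf21* and *Lum* were each lowest there, *Dcn* was highest and *Pdgfra* was neither. The sum of 6 neutrophil markers in Cre negative replicate 1 was the highest (122.9, against 36.72 to 58.94). *Csf3r* among them was lowest there (20.0 CPM, against 24.7 to 34.6), and the others were each highest there. The ventricular marker *Myl2* was between 2610 and 3710 CPM in every ventricle. Of the atrial markers, *Myl7* ranged from 4.59 (Cre positive replicate 2) to 168 CPM (Cre positive replicate 1), where the skeletal muscle gene *Myh1* was also 52.7 CPM against at most 0.324 elsewhere. The lung genes *Sftpc* and *Sftpb* were at or below 0.137 CPM, and *Scgb1a1* was 13.1 CPM in Cre positive replicate 3 only. The lung gene *Ager* was 1.07, 2.13 and 3.13 CPM in the Cre negative and 1.19, 1.29 and 1.44 CPM in the Cre positive ventricles. Y-linked genes had 16 and 12 counts in replicate 2 of the Cre negative and Cre positive groups and 1592 to 2034 counts in the other ventricles. *Yap1* was 99.5 to 108 CPM without Cre and 101 to 113 CPM with it, *Wwtr1* was 103 to 113 and 109 to 116 CPM, and neither differed (adjusted p = 0.935 and 0.876, edgeR), and no loss of either transcript was measured in these libraries, which also hold RNA of cells without Cre. *Postn*, the locus of the driver, was 852 to 1880 CPM without Cre and 889 to 998 CPM with it (log2 fold change −0.66, adjusted p = 0.714, edgeR). Without Cre negative replicate 1, which had the least *Postn* of its group (852 against 1730 and 1880 CPM), *Postn* was called lower in the Cre positive ventricles (log2 fold change −0.94, adjusted p = 0.0182, edgeR, against 0.552 to 0.97 over the other settings). The other 4 of 5 myofibroblast markers had fold changes above 0 (log2 values of 0.33 for *Acta2*, 0.41 for *Tagln*, 0.35 for *Cthrc1* and 0.59 for *Ltbp2*). Of these *Ltbp2* alone was higher in every Cre positive ventricle, as were 7.55% of all genes tested.

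To place the members on a common scale, their levels were compared per transcript length with the authors' TPM, which scales counts to transcript length and library size. *Ace* was the most abundant, with a median of 86.2 TPM over the 6 ventricles (range 79.15 to 98.62), followed by *Ece1* with 64.3 TPM (52.36 to 69.13). These 2 peptidases were thus above every receptor and ligand, with no overlap between the ranges of *Ace* and *Ece1* or between those of *Ece1* and *Agtr1a*. The receptors followed, with medians of 30.1 TPM for *Agtr1a* (21.6 to 39.2), 25.5 TPM for *Ednra* (22.14 to 36.53) and 19.4 TPM for *Ednrb* (17.95 to 25.34). Neighbours among the receptors were not separated, since their ranges overlapped and the order held in 5 of 6 ventricles for *Agtr1a* over *Ednra* and for *Ednra* over *Ednrb*. *Edn1* had a median of 11.8 TPM (6.23 to 16.02), below *Ednrb* in all 6 ventricles. *Agt* had a median of 8.09 TPM (5.93 to 27.91) and *Enpep* of 5.25 TPM (3.91 to 7.78), and the ranges of *Edn1* and *Agt* and of *Agt* and *Enpep* overlapped. *Edn3* was the least abundant, with a median of 0.77 TPM (0.48 to 2.0). *Ace*, *Ece1*, *Ednra* and *Ednrb* overlap long noncoding RNA genes in RefSeq, and whether counting used the strand is not given in the sources used here, so reads of such partners could be held in their values. By these TPM values, transcripts of the precursors (*Agt*, *Edn1* and *Edn3*) were present at lower levels than those of the converting enzymes *Ace* and *Ece1*.

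**Figure D1:**
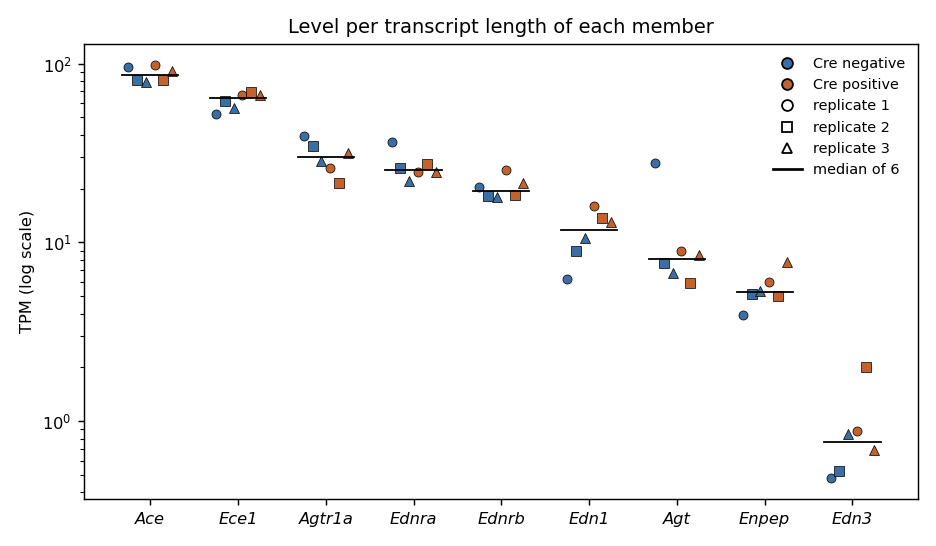
TPM (log axis) of the 9 members in each of the 6 ventricles, by group (colour) and replicate (symbol), ordered by the median of 6 (line). *Ace* and *Ece1* lie above all other members, *Edn3* lies lowest, and *Agt* in Cre negative replicate 1 (27.91 TPM) stands apart from the other ventricles.

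The comparison of Cre positive with Cre negative ventricles asked whether the ventricle holds different levels of these transcripts when myofibroblasts carry the inducible Cre. None of the 9 members had an adjusted p under 0.05 in edgeR's quasi-likelihood test, where 1 gene of 13817 did (*Gbp2b*, 0.00724%). At an unadjusted p under 0.05 in edgeR, 1 member was higher (*Edn1*) and 1 was lower (*Agtr1a*), against 2.85% and 2.98% of all genes tested in these directions. DESeq2 called none of the 9 either, and 5 of 17516 genes in total. The same 2 members had an unadjusted p under 0.05 in DESeq2, where 336 of all genes were higher and 504 lower at that value. The Cre positive ventricles lay above all Cre negative ones for 2 members (*Edn1* and *Ece1*) and below them for 0, against 7.55% and 6.85% of all genes. Fold changes were above 0 for 6 members and below 0 for 3, with a median log2 fold change of 0.13, and 51.2% of all genes were above 0, with a median of 0.01. These signs turned on single ventricles: 8 members were above 0 without Cre negative replicate 1 (median 0.13), 5 without Cre negative replicate 2 (median 0.06), 5 without Cre negative replicate 3 (median 0.09) and 4 without Cre positive replicate 1 (median −0.003). In the rest of this account, values of the ventricles are CPM normalised by the TMM method, given in the order of replicates 1, 2 and 3, and log2 fold changes are those of Cre positive over Cre negative with their standard error (SE).

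**Figure D2:**
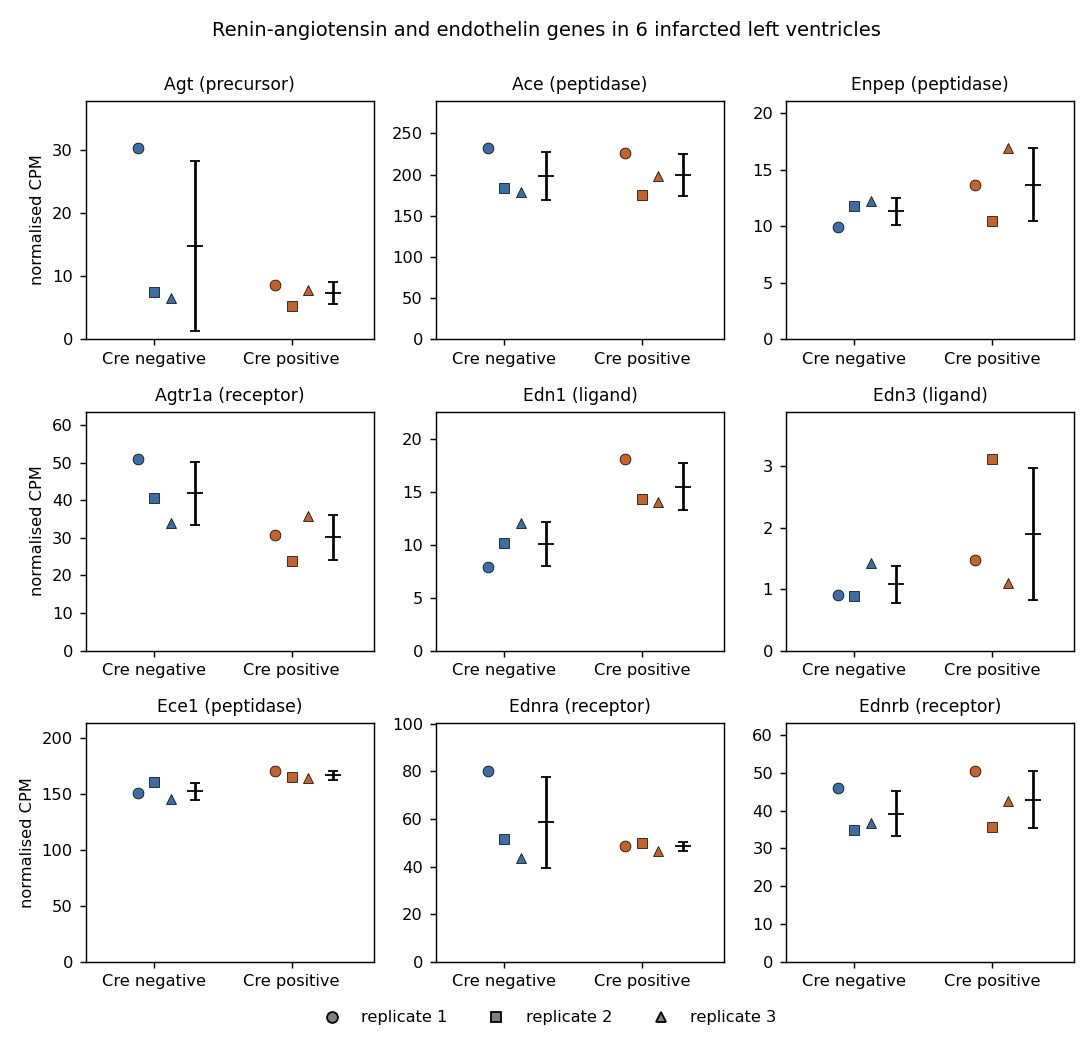
Normalised CPM of each member in the 3 Cre negative (blue) and 3 Cre positive (orange) ventricles, with the mean and SD (bar) beside the points and axes from 0. For *Edn1* and *Ece1* the Cre positive points all lie above the Cre negative ones, and for *Agt* a single Cre negative ventricle (30.2 CPM) sets the spread of its group.

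*Edn1* encodes endothelin-1 and lies on chromosome 13 (42301476 to 42307990, GRCm38.p6). It was 7.91, 10.2 and 12.1 CPM in the Cre negative and 18.1, 14.4 and 14.1 CPM in the Cre positive ventricles, from 96 to 260 counts. The groups did not overlap, and the lowest Cre positive value exceeded the highest Cre negative one. Means were 10.0 ± 2.07 (SD, n = 3) without Cre and 15.5 ± 2.26 (SD, n = 3) with it. The log2 fold change of 0.62 (SE 0.19, 95% interval 0.19 to 1.06), or 1.54-fold, had an unadjusted p of 0.0107 and an adjusted p of 0.714 in edgeR, so it did not pass the threshold over all genes. It was above 0 under each of 13 other settings, with an adjusted p between 0.509 and 0.958. Without Cre negative replicate 1, the ventricle with the least *Edn1*, it was 0.48 (adjusted p = 0.729, edgeR).

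Since endothelium is the main source of *Edn1*, the summed CPM of 8 endothelial markers, all of them above 0 in every ventricle, was set beside it. This sum was 1188 to 1212 in the Cre negative and 1202 to 1306 in the Cre positive ventricles. Of the 8 markers 1 (*Emcn*) was higher in every Cre positive ventricle, as were 7.55% of all genes tested. Per 1000 CPM of this sum, *Edn1* was 6.57, 8.57 and 9.94 without Cre and 14.7, 12 and 10.8 with it, and the groups again did not overlap. Of 8 cardiomyocyte markers 0 had a fold change above 0, against 51.2% of all genes, and the part of cardiomyocytes in the difference of *Edn1* was not tested.

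*Edn3*, whose peptide acts mainly through *Ednrb* and is known for its role in neural crest cells, lies on chromosome 2 (174760619 to 174784042). Its counts were few, 11, 13 and 21 in the Cre negative and 21, 48 and 16 in the Cre positive ventricles. In CPM these were 0.906, 0.894 and 1.43 against 1.47, 3.11 and 1.10, so the groups overlapped and Cre positive replicate 2 was the highest. The log2 fold change of 0.81 (SE 0.47, adjusted p = 0.714, edgeR) was the largest of the members above 0. It had the widest interval of those in the endothelin system (−0.28 to 1.89). It was 0.24 without Cre positive replicate 2 (adjusted p = 0.962, edgeR; 0.519 to 0.99 over all settings). The TPM of *Edn1* was 6.85 times that of *Edn3* in that ventricle and 12.5 to 18.9 times in the others.

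*Ece1*, the enzyme that activates endothelin precursors, lies on chromosome 4 (137862237 to 137965229). It was 151, 161 and 146 CPM in the Cre negative and 171, 165 and 164 CPM in the Cre positive ventricles. The groups did not overlap, but by a small margin (161 against 164 CPM). Means were 153 ± 7.61 (SD, n = 3) and 167 ± 4.12 (SD, n = 3), a log2 fold change of 0.13 (SE 0.08, adjusted p = 0.714, edgeR). With 1832 to 2550 counts it was, with *Ace*, the most deeply counted member and had the narrowest interval (−0.06 to 0.32). Per 1000 CPM of the endothelial sum it was 125, 135 and 120 without Cre and 139, 137 and 125 with it, which overlapped.

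Neither endothelin receptor passed the threshold. *Ednra* lies on chromosome 8 (77663029 to 77724452) and was 80.3, 51.6 and 43.6 CPM in the Cre negative and 48.8, 50.0 and 46.5 CPM in the Cre positive ventricles. The groups overlapped, and Cre negative replicate 1 was the highest. Its log2 fold change was −0.27 (SE 0.21, adjusted p = 0.726, edgeR), and it was 0.02 without that ventricle (adjusted p = 0.981, edgeR; 0.509 to 0.99 over all settings). The Cre positive ventricles differed little from each other, with an SD of 1.74 CPM.

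*Ednrb* lies on chromosome 14 (103814615 to 103844508) and was 46.1, 34.9 and 36.6 CPM without Cre and 50.6, 35.6 and 42.6 CPM with it. Replicate 1 was the highest in both groups, and the groups overlapped (log2 fold change 0.13, SE 0.16, adjusted p = 0.808, edgeR). It was −0.003 without Cre positive replicate 1 and 0.26 without Cre negative replicate 1 (adjusted p = 0.998 and 0.795, edgeR; 0.609 to 0.998 over all settings), so its sign rested on single ventricles. The TPM of *Ednra* was 1.78, 1.44 and 1.23 times that of *Ednrb* in the Cre negative and 0.981, 1.5 and 1.16 times in the Cre positive ventricles. *Ednra* was thus the more abundant receptor transcript in all but Cre positive replicate 1, and this ratio overlapped between the groups.

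*Agt* encodes the only precursor of the angiotensins and lies on chromosome 8 (124556587 to 124569706). It was 30.2, 7.43 and 6.54 CPM in the Cre negative and 8.65, 5.31 and 7.87 CPM in the Cre positive ventricles, from 82 to 367 counts. Cre negative replicate 1 was 3.50 times the next highest ventricle, and the other 5 lay within the range of 5.31 to 8.65 CPM. Of 13817 genes 15, *Agt* among them, stood at least that far above all other ventricles in Cre negative replicate 1 (0.109%). The log2 fold change of −1.01 (SE 0.58, adjusted p = 0.714, edgeR) rested on that ventricle, without which the value was 0.05 (SE 0.23, adjusted p = 0.981, edgeR; 0.509 to 0.99 over all settings). Per 1000 CPM of the cardiomyocyte sum, *Agt* was 0.507 there and 0.148 to 0.215 in the other 5 ventricles. The genes whose pattern over the 6 ventricles was most like that of *Agt* were *Cd177*, a neutrophil surface protein, *Spock2*, a matrix proteoglycan, and *Serpina3n*, an acute phase protease inhibitor. Their root mean square distances from *Agt* were 0.12, 0.13 and 0.17 on the centred log2 scale. *Serpina3n* was 922 CPM in Cre negative replicate 1 and 126 to 296 CPM in the others. The part of the neutrophil, collagen and cardiomyocyte genes that also stood apart in that ventricle was not tested. By the same rule, the genes most like *Edn3*, the next most variable member, were *Irak1bp1*, *Scml2* and *9530077C05Rik*, at distances of 0.18, 0.21 and 0.24, all with few counts.

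*Ace*, the enzyme that forms angiotensin II and that is abundant on endothelium, lies on chromosome 11 (105967948 to 105989964). It was 232, 184 and 179 CPM without Cre and 226, 175 and 198 CPM with it. Replicate 1 was the highest in both groups and the ranges coincided almost fully. *Ace* had a log2 fold change of 0.01 (SE 0.14, adjusted p = 0.988, edgeR), with a 95% interval from −0.32 to 0.34.

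*Enpep* lies on chromosome 3 (129269177 to 129332749). It was 9.97, 11.8 and 12.2 CPM in the Cre negative and 13.7, 10.5 and 16.9 CPM in the Cre positive ventricles. The groups overlapped through Cre positive replicate 2 (log2 fold change 0.27, SE 0.19, adjusted p = 0.721, edgeR). The value was 0.43 without that ventricle and 0.09 without Cre positive replicate 3 (adjusted p = 0.958 and 0.94, edgeR; 0.586 to 0.99 over all settings).

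*Agtr1a*, the type 1 angiotensin receptor, lies on chromosome 13 (30336356 to 30382867). It was 50.9, 40.6 and 34.0 CPM in the Cre negative and 30.8, 23.9 and 35.9 CPM in the Cre positive ventricles, from 370 to 618 counts. The groups overlapped, since Cre positive replicate 3 exceeded Cre negative replicate 3. Means were 41.8 ± 8.55 (SD, n = 3) without Cre and 30.2 ± 5.98 (SD, n = 3) with it. The log2 fold change of −0.47 (SE 0.19, 95% interval −0.91 to −0.03) had an unadjusted p of 0.0395 and an adjusted p of 0.714 in edgeR. It was below 0 in all 13 other settings and had an unadjusted p under 0.05 in 8 of them. It moved to −0.31 without Cre negative replicate 1 (adjusted p = 0.792, edgeR; 0.509 to 0.99 over all settings).

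As *Agtr1a* is known from fibroblasts and mural cells, it was set beside their markers. Per 1000 CPM of the 7 fibroblast markers, all above 0 in every ventricle, *Agtr1a* was 3.87, 2.01 and 1.89 without Cre and 1.32, 1.27 and 1.62 with it, so the groups did not overlap. Collagen genes (*Col1a1*, *Col1a2* and *Col3a1*) made up 90.8% to 95% of this sum. Over the other 4 markers summed, *Agtr1a* was 0.0422, 0.0353 and 0.0339 against 0.0265, 0.0251 and 0.0301, again without overlap. *Dcn* (626 to 938 CPM) made up most of that sum (953.2 to 1208 CPM). Over *Tcf21* alone, *Agtr1a* was 3.07, 1.45 and 1.37 against 1.22, 0.964 and 1.57, which overlapped. Over *Pdgfra* alone it was 0.576, 0.545 and 0.389 against 0.333, 0.276 and 0.383, without overlap. The fibroblast sum was 13150 to 20180 in the Cre negative and 18820 to 23270 in the Cre positive ventricles, and 0 of its 7 markers was without overlap. Per 1000 CPM of the 7 smooth muscle and pericyte markers (sums of 874.3 to 992.1 and of 887.6 to 1125), *Agtr1a* was 58.2, 41.5 and 34.2 against 34.7, 26.0 and 31.9, which overlapped. Of these 7 markers 2 (*Cnn1* and *Cspg4*) were higher in every Cre positive ventricle, as were 7.55% of all genes tested. The part of these cells in the difference was not tested. The close paralog *Agtr1b* was not analysed here.

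**Figure D3:**
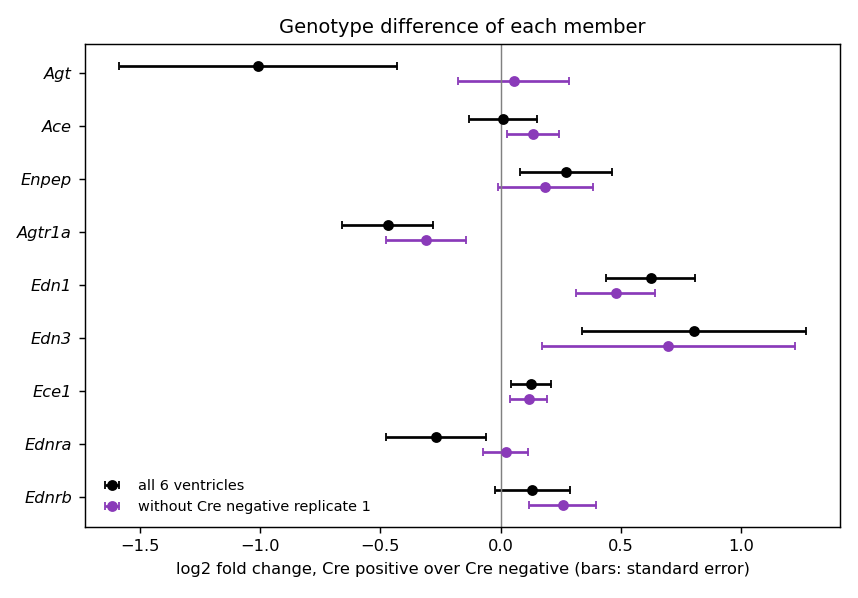
Log2 fold change of Cre positive over Cre negative with its standard error for each member, with all 6 ventricles (black) and without Cre negative replicate 1 (purple). *Agt* moves from −1.01 to 0.05 and *Ednra* from −0.27 to 0.02, while *Edn1* (0.62 and 0.48) and *Agtr1a* (−0.47 and −0.31) keep their direction.

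The wider pathway was examined with 64 other genes, of which 61 were listed (*Kng1*, *Cyp11b2* and *Agtr1b* were not analysed here) and 53 passed the filter. None of the 53 had an adjusted p under 0.05 in edgeR. DESeq2, run on all 61 without that filter, called none. It gave 7 of them an unadjusted p under 0.05, and 840 of 17516 genes in total. In edgeR, at an unadjusted p under 0.05, 5 were higher and 1 was lower, against 2.85% and 2.98% of all genes tested. Every Cre positive ventricle was above the Cre negative ones for 7 genes and below them for 1, against 7.55% and 6.85% of all, and the median log2 fold change was 0.04. The upstream end of the circulating system was barely present, as *Ren1* (renin) had 0 counts in 4 ventricles and 1 and 5 in the others, with a count of 0 allowing up to 0.247 CPM. *Agtr2*, the type 2 angiotensin receptor, had 6, 3 and 3 counts without Cre and 0, 1 and 1 with it, and *Edn2*, the remaining endothelin, had 0 to 2 counts. The adrenal enzyme *Cyp11b1*, the mast cell and neutrophil protease *Ctsg*, *Klk1*, *Bdkrb1* and *Kel* were also under the filter.

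Among the other angiotensin genes 14 were tested, 7 of them with a fold change above 0, and the median was 0.02. Without Cre negative replicate 2, 11 of the 14 were above 0 (median 0.04), and 12 were with limma on log2(TPM + 1) (median 0.14). *Lnpep*, an aminopeptidase that binds angiotensin IV, was 27.2, 24.6 and 26.2 against 32.9, 35.7 and 28.5 CPM and did not overlap (log2 fold change 0.32, SE 0.11, adjusted p = 0.714, edgeR). Of the 2 endothelin genes tested, *Ece2* and *Ecel1*, 1 was above 0 and 1 below.

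Of 21 genes that carry the signal of these receptors (G proteins, phospholipase C, IP3 receptors, protein kinase C, arrestins, receptor kinases and regulators of G protein signalling), 13 were above 0 with a median of 0.04, 11 were without Cre negative replicate 1 (median 0.005) and 18 were with limma on log2(TPM + 1) (median 0.15), which also moved the median of all genes to 0.11. *Itpr1*, an IP3 receptor that releases calcium from internal stores, was 35.6, 39.1 and 41.5 CPM without Cre and 46.9, 48.2 and 46.3 CPM with it. The groups did not overlap (log2 fold change 0.28, SE 0.09, adjusted p = 0.714, edgeR). *Itpr3* was 20.0, 20.6 and 18.2 against 24.4, 21.0 and 25.4 CPM, also without overlap (log2 fold change 0.27, SE 0.12, adjusted p = 0.714, edgeR). *Rgs4* was 17.6, 20.9 and 22.7 against 24.2, 27.5 and 33.9 CPM (log2 fold change 0.48, SE 0.15), and *Rgs2* was 33.5, 37.1 and 35.7 against 23.2, 25.4 and 34.4 CPM (log2 fold change −0.36, SE 0.15), both with an adjusted p of 0.714 in edgeR. These 2 genes encode regulators that switch off G proteins, and their fold changes had opposite signs.

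All 4 tested genes of the aldosterone arm were below 0 (*Nr3c2*, *Hsd11b2*, *Hsd11b1* and *Sgk1*, median −0.33), none with an unadjusted p under 0.05 in edgeR with all ventricles, the filter and no covariate. *Hsd11b1* was under that value in DESeq2 and, in edgeR, with no filter, with a replicate block, with the covariate for Y-linked counts and without Cre negative replicate 2 or 3. Without Cre negative replicate 1 the list had 3 of 4 genes below 0 (median −0.21), as without Cre positive replicate 2 (median −0.22), as with limma on log2(TPM + 1) (median −0.10), and its median was −0.51 without Cre positive replicate 1. *Hsd11b1* was 20.4 CPM in Cre negative replicate 1 and 3.36 to 7.22 CPM in the others. Of 12 genes that angiotensin II or endothelin-1 is known to raise, 11 were above 0, against 51.2% of all genes, with a median of 0.11. Single ventricles carried this count, which was 8 without Cre negative replicate 1 (where *Tgfb1*, *Spp1* and *Cybb* were then below 0) and 7 without Cre negative replicate 2, Cre positive replicate 1 or Cre positive replicate 2. *Rcan1*, an inhibitor of calcineurin, was 224, 206 and 261 CPM without Cre and 336, 333 and 267 CPM with it, without overlap (log2 fold change 0.44, SE 0.13, adjusted p = 0.714, edgeR). The natriuretic peptide gene *Nppa* was highest in Cre positive replicate 1 (6110 CPM, against 2680 to 3800), the ventricle with the most *Myl7*, and without that ventricle its log2 fold change turned from 0.11 to −0.40 (adjusted p = 0.759, edgeR; 0.879 to 0.993 over the other settings).

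**Figure D4:**
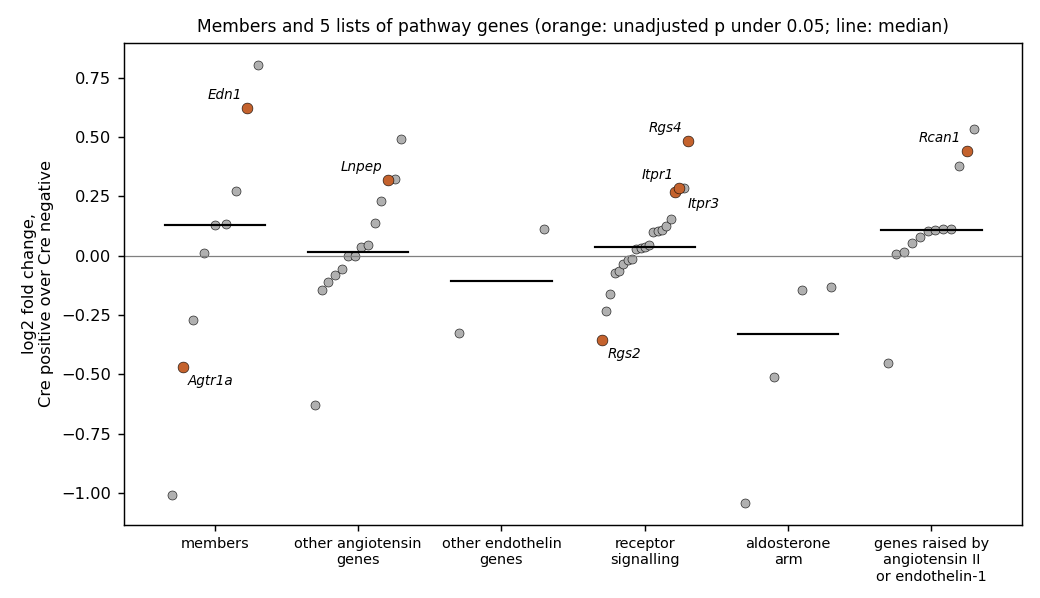
Log2 fold change of Cre positive over Cre negative for the 9 members and the 53 tested pathway genes in 5 lists, with the median of each list as a line. Orange points had an unadjusted p under 0.05 (6 of the 53 pathway genes, and *Edn1* and *Agtr1a* of the members), and none passed the adjusted threshold.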

How the data were processed

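Bulk RNAseq of 6 left ventricles was analysed. The authors deposited an estimated count for each gene and ventricle, not normalised, of which 11.5% are not whole numbers. The authors also deposited TPM and FPKM values, scaled to transcript length and library size. The submitters' processing notes name Bowtie2 2.2.5, RSEM 1.2.12 and GRCm38.p6; the annotation and strandedness are not given in the sources used here. A deposited table of the authors' own DESeq2 comparison was not used. Libraries were prepared by BGI Americas from TRIzol RNA.

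Rounded counts were fitted by edgeR 4.0.16 (R 4.3.3) after filtering with filterByExpr (minimum count 10, minimum total 15) and scaling of libraries by TMM, and the groups were compared by the quasi-likelihood test without a covariate, with Benjamini-Hochberg adjustment over all genes and a threshold of 0.05. Standard errors were derived from the F statistic. The intervals are 95% intervals of that fit, and the limit for a count of 0 is 3 counts, which covers counting error only. P-values set the difference between the groups against the spread between these ventricles, a spread that edgeR estimates partly over all genes. The test was run beforehand on simulated counts. Alternatives were DESeq2 1.42.0, limma 3.58.1 on log2(TPM + 1), other scalings, no filter, a replicate block, a covariate for Y-linked counts and leaving out each ventricle.

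The members and gene lists were chosen with earlier results of these data known. Named pathway genes are those with an unadjusted p under 0.05 or under the filter, 1 gene of the pathway list is not reported here, and others named (*Ece2*, *Ecel1*, *Nr3c2*, *Hsd11b2*, *Hsd11b1*, *Sgk1*, *Nppa*, *Tgfb1*, *Spp1* and *Cybb*) were chosen after their values were seen, as were the levels per cell type marker. Likeness is the root mean square distance between mean-centred log2 CPM profiles (prior count 2), given for the 2 members with the largest SD. *Ccn2* is listed as *Ctgf* and was matched by gene number. Positions and promoters are from RefSeq on GRCm38.p6. Figures were drawn with matplotlib 3.10.9.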

Additional observations from a re-analysis of the deposited data

How the results depend on the processing

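No member and no pathway gene outside the members had an adjusted p under 0.05 under any of the 13 alternatives. The number of genes called over the whole table was 1; it was 5 with DESeq2, 2 with limma on log2(TPM + 1) and 0 with a replicate block, and ranged from 0 to 2 when a ventricle was left out (2, *Gbp2b* and *Postn*, without Cre negative replicate 1; 0 without Cre negative replicate 3, Cre positive replicate 1 or Cre positive replicate 3), and the cause was not tested. The number of members with an unadjusted p under 0.05 was 2 and ranged from 1 to 4 when a ventricle was left out: it was 1 (*Edn1*) without Cre negative replicate 1, without Cre negative replicate 2 and without Cre positive replicate 1, and 4 (*Agt*, *Agtr1a*, *Edn1* and *Ednra*) without Cre negative replicate 3. Over all genes tested it was 806 of 13817 with all ventricles. In these 4 settings, in the order given, it was 922 of 13995, 902 of 13971, 556 of 13978 and 1346 of 14002. *Edn1* had an unadjusted p under 0.05 in all 13, with log2 fold changes from 0.48 to 0.78.

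The log2 fold change changed sign for *Agt* (0.054, range when a ventricle was left out −1.363 to 0.054) and *Ednra* (0.022, range −0.443 to 0.022) without Cre negative replicate 1, for *Ednrb* (−0.003, range −0.003 to 0.258) without Cre positive replicate 1, and for *Ace* without Cre negative replicate 2 (−0.041), without Cre negative replicate 3 (−0.059) and without Cre positive replicate 1 (−0.09), with a range of −0.09 to 0.135. With limma on log2(TPM + 1) the median of all genes moved to 0.11, and 880 genes were higher and 119 lower at an unadjusted p under 0.05, against 394 and 412 in edgeR; *Ece1* (0.24) then took the place of *Agtr1a* (−0.36) among the members under 0.05. Ratios from FPKM differed from those from TPM by less than 1 SD.

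Ventricles with the same replicate number had correlations of their deviations from the group mean of 0.35, 0.07 and −0.03. Those with unlike numbers had correlations from −0.37 to 0.35. Y-linked counts were alike within each number (1870 and 1592, 16 and 12, 2034 and 1975, Cre negative first). With 3 ventricles in each group, these values cannot decide whether the numbers mark pairs. With a replicate block *Edn1* was 0.63 and *Agtr1a* −0.47, and 2 members had an unadjusted p under 0.05 in edgeR. Over all 13817 genes, 1217 were under 0.05 with the block and 806 without it. *Edn3* had the fewest counts of the members (11 to 48), and the part of counting error in its spread was not tested.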

Other observations

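Although the rule for likeness named neighbours of *Agt* and *Edn3* only, those of *Edn1* were looked at after its values had been seen. The 3 genes nearest to *Edn1* over the 6 ventricles were *Adam12*, a metalloproteinase of activated fibroblasts, *Cnn1*, a smooth muscle calponin, and *Tgfb2*, a transforming growth factor, at root mean square distances of 0.08, 0.09 and 0.09 on the centred log2 scale. *Tgfb2* was 39.6, 55.1 and 61.1 CPM in the Cre negative and 79.7, 67.4 and 69.9 CPM in the Cre positive ventricles. *Adam12* was 41.5, 56.0 and 68.7 against 88.0, 75.4 and 80.6 CPM, and *Cnn1* was 12.8, 17.2 and 23.7 against 32.2, 24.3 and 25.5 CPM. In each of them Cre negative replicate 1 was the lowest ventricle and Cre positive replicate 1 the highest, as for *Edn1*. No test of this likeness was made.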
